A study of Rattus norvegicus with 46 samples.

Results

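Ischemic lesions of rats on a ketogenic diet were compared with lesions of rats on a standard diet. The 30 lesion libraries, 19 ketogenic and 11 standard-diet, were taken by their labels out of 46 brain libraries in all. The animals were young male Wistar rats, 3 months old. The standard diet, named ad libitum in the labels, held 3227 kcal/kg with 11% of calories as fat, 24% as protein and 65% as carbohydrate. The ketogenic diet held 6431 kcal/kg with 84% as fat, 11% as protein and 5% as carbohydrate. Each diet was given for 2 months, then the middle cerebral artery was occluded (MCAO, a model of ischemic stroke), and the same diet went on for 2 weeks. RNA was taken from the lesion 14 days after MCAO. Intact brain on each diet (8 libraries per diet) served here for reference. Each library carries its own sample number. The numbers of the diets do not overlap, so anything that follows the numbering cannot be told apart from diet.

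A ketogenic diet replaces carbohydrate with fat, and the liver then releases ketone bodies that the brain takes up as fuel. At 2 weeks after an arterial occlusion the dead tissue is filled with microglia and with macrophages that came in from the blood, which clear debris. How many of them a sample holds varies with the size of the infarct and with where the tissue was cut. A diet difference has to be read against that variation, so it was computed without and with a lesion severity score. The score was the mean of log2(CPM + 1) over 4 myeloid genes, where CPM is the count of a gene scaled to a library total of 1000000. These were Cd68, a lysosomal protein of phagocytes, Ptprc, the CD45 phosphatase of white blood cells, Csf1r, the receptor for the growth factor that sustains microglia and macrophages, and Itgb2, the beta-2 integrin chain with which leukocytes adhere. The deposited tables list gene IDs without names, and 0 of 30452 IDs matched the gene table at hand. Only these 4 IDs came with names, in the definition of the score, and every other gene is given by ID, with no role.

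Library totals ran from 17068206 to 22664327 counts in standard-diet lesions and from 15290782 to 30601841 in ketogenic lesions. The 20 most abundant genes took 12.5% ± 1.03 (SD, n = 19) of the counts of ketogenic lesions and 12.7% ± 0.798 (SD, n = 11) of those of standard-diet lesions. Nothing in the labels says that libraries of a group share an animal, and libraries of the same group differed from each other by more than counting error (282 pairs compared).

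The myeloid genes that make up the score were above every intact library in every lesion, and they varied widely among lesions of either diet. The score ran from 6.12 to 8.48, with a median of 7.86, in standard-diet lesions and from 4.89 to 8.75, with a median of 7.94, in ketogenic lesions. Intact libraries lay between 2.33 and 3.21. No lesion came down to the intact range, and the lesion groups overlapped. The lowest were ketogenic lesions 27, 9 and 31, at 4.89, 5.61 and 5.78, below the lowest standard-diet lesion (number 71). The mean score was 7.53 ± 1.10 (SD, n = 19) on the ketogenic and 7.72 ± 0.73 (SD, n = 11) on the standard diet. This difference of -0.19 was smaller than the spread within either group (two-sided permutation test with 100000 resamples, p = 0.61). In bulk tissue, fewer myeloid cells and less RNA of these genes per cell cannot be told apart.

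Each gene of the score varied widely among lesions of either diet, and the diets overlapped, though their medians did not all differ in the same direction. Cd68 ran from 25.1 to 281 CPM in standard-diet lesions (median 165) and from 12.2 to 404 CPM in ketogenic lesions (median 169). In intact brain it was at most 1.8 CPM, with 0 counts in standard-diet library 85, which allows up to 0.338 CPM (3 counts; this floor covers counting error only). Ptprc ran from 26.8 to 124 CPM (median 71.6) and from 6.93 to 142 CPM (median 80.0). Every lesion lay above every intact library for Ptprc, where the highest was 4.21 CPM. Csf1r, which resident microglia express as well, was already at 42.6 to 84.1 CPM in intact brain. It reached 344 to 1800 CPM (median 983) in standard-diet and 190 to 2090 CPM (median 836) in ketogenic lesions. Itgb2 ran from 87.1 to 393 CPM (median 226) and from 38.1 to 492 CPM (median 221). None of the 4 differed between diets in the fit without the score: the log2 differences, ketogenic minus standard, were 0.15 (SE 0.392) for Cd68, -0.05 (SE 0.325) for Ptprc, -0.11 (SE 0.271) for Csf1r and -0.02 (SE 0.323) for Itgb2, with edgeR adjusted p between 0.928 and 0.99. Standard errors of this size leave room for diet differences well above 0.3 log2 units in each of the 4 genes. In the fit with the score these genes are part of the covariate, so no diet value of theirs is read from it.

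**Figure D1:**
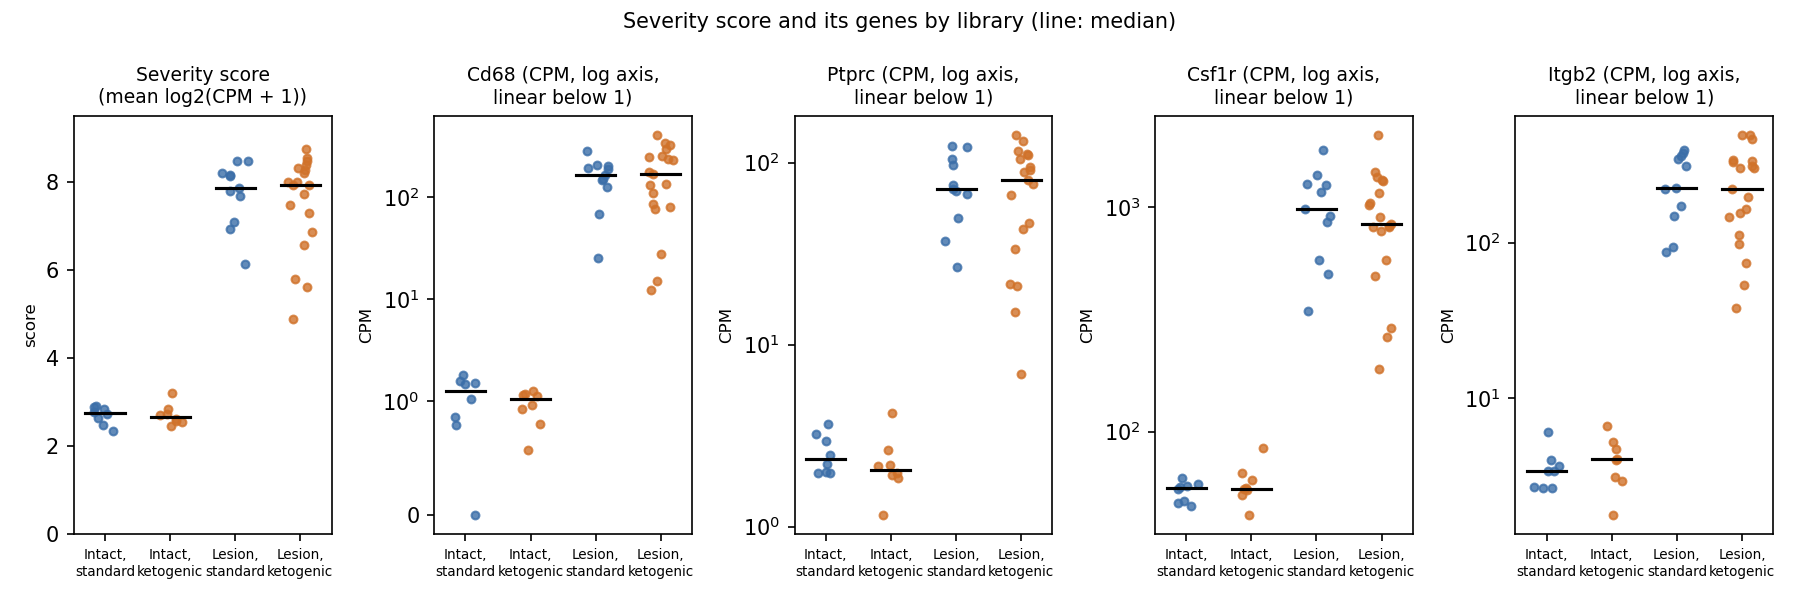
Severity score (left, mean log2(CPM + 1)) and CPM of its 4 genes (log axes, linear below 1) in each of the 46 libraries by tissue and diet, with 1 point per library and a line at the median. Lesion scores lie between 4.89 and 8.75 on both diets together, all above the intact range of 2.33 to 3.21, and the 3 lowest lesions are ketogenic.

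The score followed a large part of what differed among lesions. Of 15782 genes tested, 11111 changed with it inside the lesions (70.4%), by a median of 0.28 log2 units per unit of score, and 291 rose while 5 fell at least 2-fold per unit. The 4 genes of the score and others that mark the same cells are in this count by construction. The first principal component of the 30 lesions took up 63.9% of the variance over the 2000 genes that varied most. The score correlated with it (Pearson r = 0.755, permutation p = 1e-05, the smallest that 100000 resamples can give; Spearman rho = 0.636, permutation p = 3e-04; 1 relation computed, n = 30). Without the 2 lesions farthest from the median score r was 0.70, and within the diets it was 0.688 (n = 11) and 0.782 (n = 19). Both came from the same 30 lesions, and genes of the score or of the same cells were not taken out of the 2000. Part of the correlation is therefore built in, and its p-values are no separate support for the score. The score and the component overlap but are not the same measure.

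Without the score, the number of genes called for diet in lesions was small and depended on the method, and the called differences were small. Of 15782 genes, 117 (0.741%) passed edgeR's quasi-likelihood test at an adjusted p under 0.05, 73 higher (0.463%) and 44 lower (0.279%) on the ketogenic diet. Of these 117, 36 differed by less than 1.2-fold, 4 reached 1.5-fold and 0 reached 2-fold. At an unadjusted p under 0.05 there were 2121 genes. On the same design DESeq2 called 502 genes and limma voom with quality weights 933, and edgeR called 6 without standard-diet lesion 70. DESeq2 gave an adjusted p for 13024 genes only, so its count is over fewer genes. The whole 95% interval of the difference lay within 1.5-fold of no difference for 71.9% of genes, and within 2-fold for 94.1%.

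With the score as a covariate, 1025 genes (6.49%) differed between diets, 491 higher (3.11%) and 534 lower (3.38%) on the ketogenic diet. All 117 genes were among them with the same sign, and 908 were added. The differences stayed small: the median size of a called difference was 0.26 on the log2 scale and the largest 0.90, 538 of the 1025 lay under 1.2-fold, 29 reached 1.5-fold and 0 reached 2-fold. At an unadjusted p under 0.05 there were 3591 genes, or 22.8% of those tested. DESeq2 called 1606 of the 14864 genes to which it gave an adjusted p, and limma voom called 2445. With the score, the whole 95% interval lay within 1.5-fold of no difference for 80.3% of genes, and within 2-fold for 95.8%.

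At the median over the added genes, the standard error shrank with the score and the size of the difference changed little. For these 908 genes the median standard error fell from 0.0885 to 0.0669 on the log2 scale, while the median size of the difference went from 0.23 to 0.25. All 908 had the same sign in both fits, 698 already had an unadjusted p under 0.05 without the score, and 688 had a larger difference with it. Single genes moved further than the median, with an unadjusted edgeR p of up to 0.57 without the score. The 908 were picked for passing only with the score. That choice itself favours a smaller error and a larger difference there, so these values are no separate support for the calls. Over all genes tested the median standard error fell from 0.139 to 0.104, and it was smaller with the score for 94.6% of genes. For the 117 genes called in both fits the median standard error was 0.0662 without and 0.0634 with the score. The median size of their difference was 0.29 in both. These genes were picked by passing without the score, so a small error in that fit is partly built in. The common coefficient of variation between lesions, as edgeR estimates it, was 0.342 without and 0.257 with the score.

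**Figure D2:**
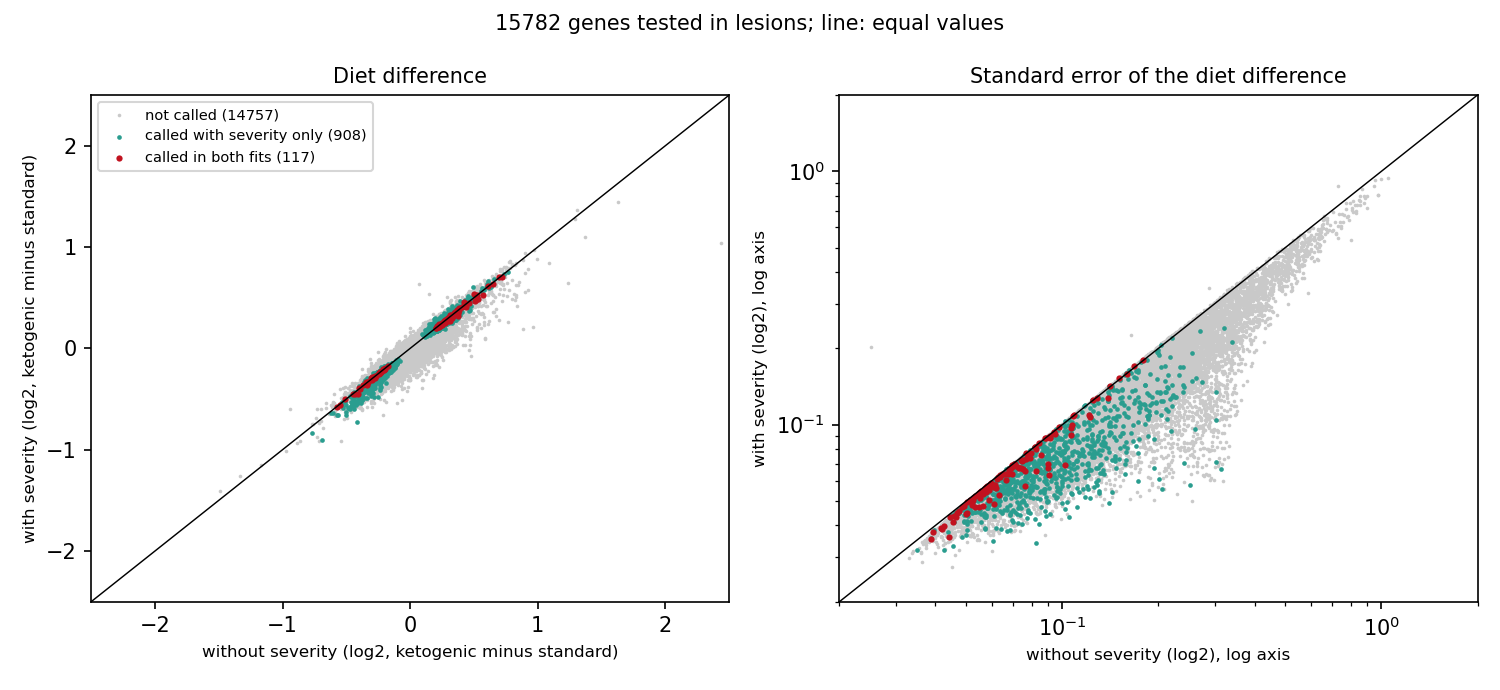
Diet difference (left, log2, ketogenic minus standard) and its standard error (right, log2, log axes) for each of 15782 genes without the severity score (horizontal) and with it (vertical), with genes called in both fits in red and those called with the score only in green. Differences lie close to the line of equal values, while standard errors lie below it for 94.6% of genes; 1 gene lies outside the axes on the right.

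Most called genes were at middle and high levels. With the score, 8.51% of the 8681 genes at a mean of 10 to 100 CPM and 7.86% of the 2162 genes above that were called. At 1 to 10 CPM 2.60% of 3955 genes were called, and under 1 CPM 1.32% of 984. The median standard error was 0.0803 at 10 to 100 CPM and 0.232 under 1 CPM, and the called genes under 1 CPM had a median difference of 0.63 against 0.25 at 10 to 100 CPM. Small differences were thus harder to detect in weakly expressed genes, and how much of this is counting error and how much is spread between lesions was not tested.

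The next 4 gene IDs are the 2 largest called rises and the 2 largest called falls with the score among genes at a mean of at least 1 CPM. ENSRNOG00000068238 ran from 1.1 to 1.8 CPM in standard-diet lesions (median 1.58) and from 0.482 to 4.4 CPM in ketogenic lesions (median 2.62). The groups overlapped, with 14 of 19 ketogenic lesions above the highest standard-diet lesion and 2 below the lowest. Its log2 difference was 0.77 (SE 0.22, edgeR adjusted p = 0.0885) without and 0.75 (SE 0.22, adjusted p = 0.0377) with the score, so the difference itself did not move. ENSRNOG00000020434 ran from 0.26 to 1.64 CPM (median 0.804) and from 0.682 to 2.03 CPM (median 1.14). Here 17 of 19 ketogenic lesions lay above the standard-diet median, and the log2 difference was 0.73 in both fits, with an adjusted p of 0.0818 without and 0.0324 with the score. Neither of these IDs changed detectably with the score itself (edgeR adjusted p of 0.607 and 0.811 for the slope). Their unadjusted p was no smaller with the score, at 0.00155 without and 0.00181 with it for ENSRNOG00000068238 and at 0.00117 and 0.00133 for ENSRNOG00000020434, so only the adjustment over all genes moved these calls.

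The IDs with the largest falls showed the opposite behaviour: they fell with severity, and the diet difference came out only against it. ENSRNOG00000013937 ran from 2.68 to 12.3 CPM in standard-diet lesions (median 6.83) and from 1.3 to 12.3 CPM in ketogenic lesions (median 4.07), and 7 of 19 ketogenic lesions lay below all standard-diet ones. It fell by 0.73 log2 units per unit of score (edgeR adjusted p = 6.32e-07). Moved to the mean score, its log2 CPM ran from 1.56 to 3.29 on the standard diet (median 3.05) and from 1.05 to 2.96 on the ketogenic diet (median 1.94). All 19 ketogenic lesions then lay below the standard-diet median, against 13 of 19 before. The log2 difference went from -0.41 (SE 0.34, edgeR adjusted p = 0.691) to -0.73 (SE 0.212, adjusted p = 0.0372). ENSRNOG00000070456 ran from 0.727 to 3.19 CPM (median 1.90) and from 0.407 to 2.94 CPM (median 1.38), and fell by 0.47 log2 units per unit of score (edgeR adjusted p = 7.3e-05). With the score 18 of 19 ketogenic lesions lay below the standard-diet median, against 16 without, and the log2 difference went from -0.50 (SE 0.255, edgeR adjusted p = 0.397) to -0.66 (SE 0.191, adjusted p = 0.0372). Both falling IDs were picked by the fit whose slopes moved the lesions. Their clearer separation at the mean score is therefore partly built in and no separate support. All 4 calls picked with the score sat close to the threshold: their edgeR adjusted p ran up to 0.0822 over 43 other settings, in 28 to 36 of which each held.

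The IDs that led without the score had nearly the same difference in both fits. ENSRNOG00000069594 ran from 2.16 to 4.32 CPM in standard-diet lesions (median 2.52) and from 2.11 to 7.29 CPM in ketogenic lesions (median 4.38), with 10 of 19 ketogenic lesions above all standard-diet ones. Its log2 difference was 0.65 without and 0.64 with the score (edgeR adjusted p of 0.0474 and 0.0175). ENSRNOG00000015333 ran from 0.549 to 1.21 CPM (median 0.935) and from 0.839 to 2.06 CPM (median 1.19). At the mean score 15 of 19 ketogenic lesions lay above all standard-diet ones, against 9 before. The slope that moved the lesions came from the same fit, so this clearer separation is partly built in and no separate support. The log2 difference was slightly smaller with the score, at 0.57 without and 0.53 with it (edgeR adjusted p of 0.0464 and 0.0156). ENSRNOG00000070234 was lower on the ketogenic diet, at 4.45 to 9.51 CPM (median 6.20) against 4.98 to 14.8 CPM (median 9.07), with a log2 difference of -0.55 without and -0.56 with the score (adjusted p of 0.0385 and 0.0117). ENSRNOG00000053406 was lower as well, at 0.915 to 2.82 CPM (median 1.59) against 1.89 to 3.21 CPM (median 2.48), with 13 of 19 ketogenic lesions below all standard-diet ones. Its log2 difference was -0.51 without and -0.50 with the score (adjusted p of 0.0474 and 0.0175). With the score each of these 4 calls held in 43 of 43 other settings, which include 7 other forms of the score. Without it they held in 10 of 36 for ENSRNOG00000069594 and in 12 of 35, 19 of 36 and 10 of 35 for the others in the order given. For the IDs with 35 settings DESeq2 gave no adjusted p without the score. The differences themselves ranged over the settings about as widely in either fit: for ENSRNOG00000069594 from 0.60 to 0.72 without and from 0.58 to 0.72 with the score, and for ENSRNOG00000053406 from -0.56 to -0.47 and from -0.55 to -0.46. The unadjusted p was no smaller with the score for these 2 IDs (0.000305 and 0.000353; 0.000307 and 0.000355), so for them the calls differed through the adjustment over all genes.

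**Figure D3:**
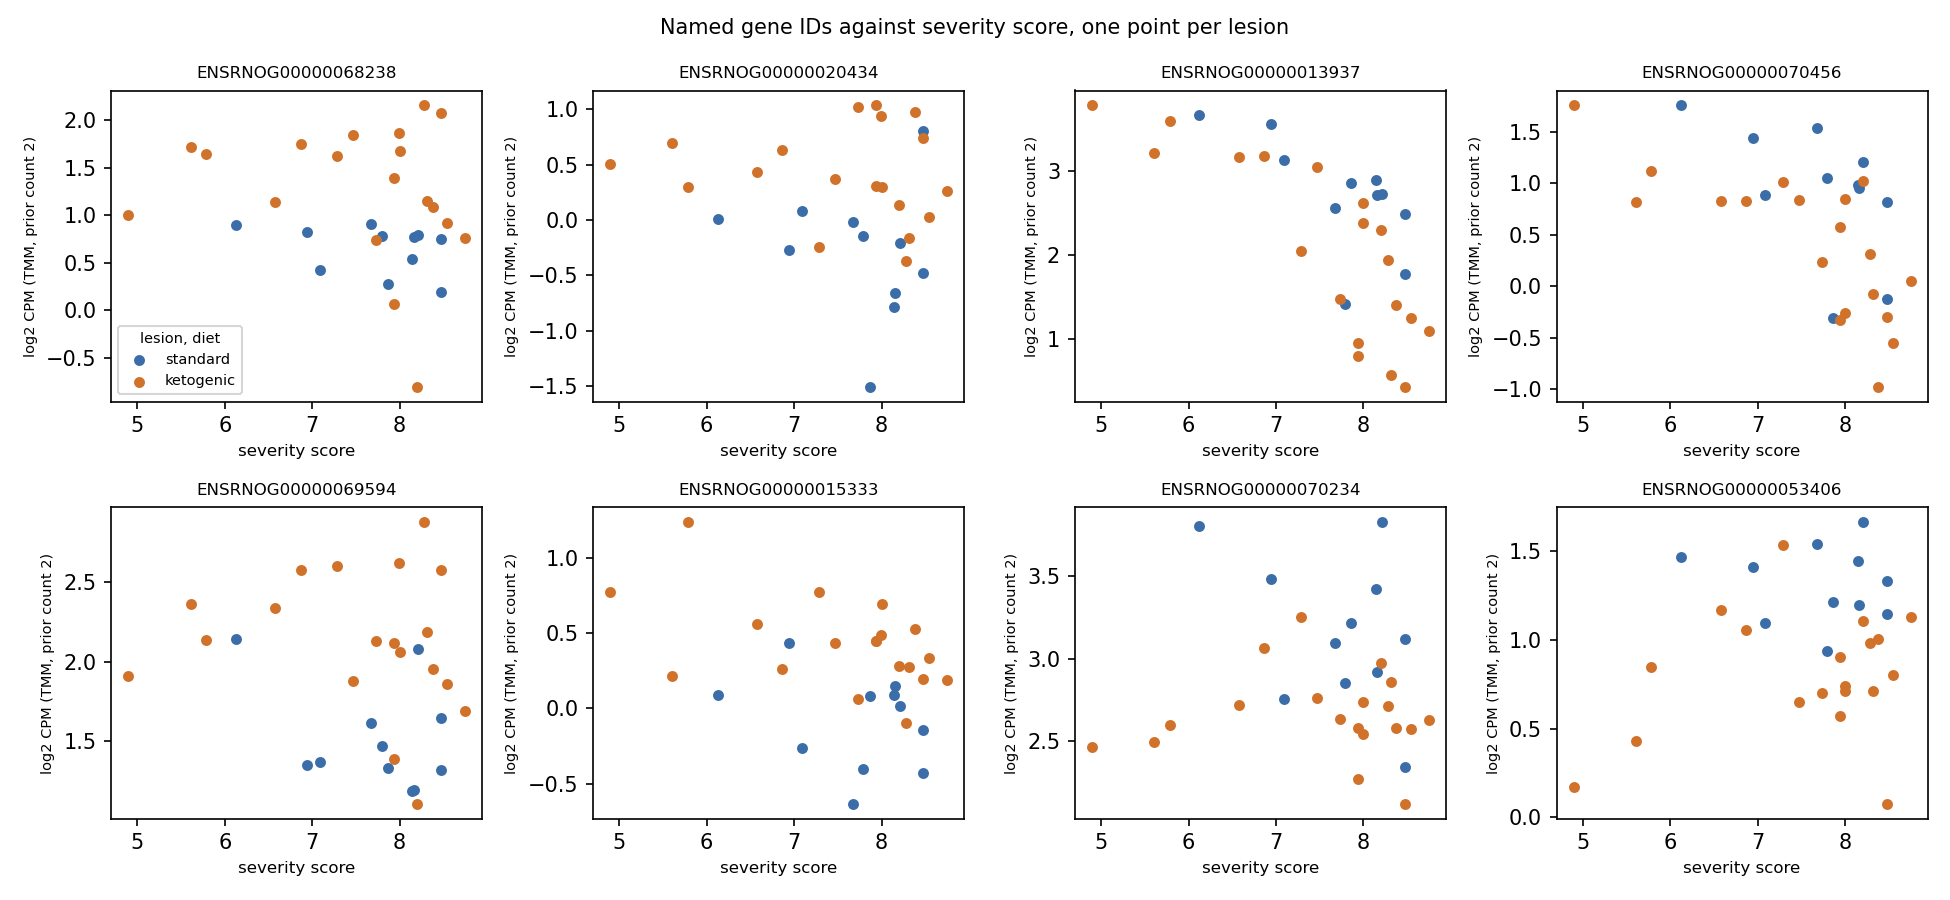
Log2 CPM (TMM scaling, prior count 2) of the 8 named gene IDs against the severity score, with 1 point per lesion coloured by diet. ENSRNOG00000013937 and ENSRNOG00000070456 fall along the score, and for all 8 IDs the points of the diets overlap.

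The fit with the score takes its slope to be the same on both diets, and this was tested as a product of diet and score. edgeR called 0 of 15782 genes, and 371 (2.35%) had an unadjusted p under 0.05. DESeq2 and limma voom with quality weights also gave 0, with 397 and 1408 genes at an unadjusted p under 0.05. The 95% interval of the difference in slope lay within 2-fold per unit of score for 93.2% of genes. The score was measured in the same lesions after the diet, so a diet effect on myeloid content and a chance difference in lesion severity cannot be told apart in this fit.

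More single libraries moved the number of calls without the score than with it. Leaving out each lesion in turn gave between 6 calls (without standard-diet lesion 70) and 242 calls (without ketogenic lesion 37) in the fit without the score, and 20 of 30 lesions moved the count by over 1.5 times. With the score the range was 370 to 1571, and 6 of 30 lesions moved it that far. These were the standard-diet lesions 61 (547 calls without it), 69 (1571), 70 (370), 71 (443) and 82 (480) and the ketogenic lesion 15 (628). Every one of the 370 genes called without lesion 70 was among the 1025. Without ketogenic lesion 27, the one with the lowest score, there were 836 calls, 829 of them among the 1025.

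**Figure D4:**
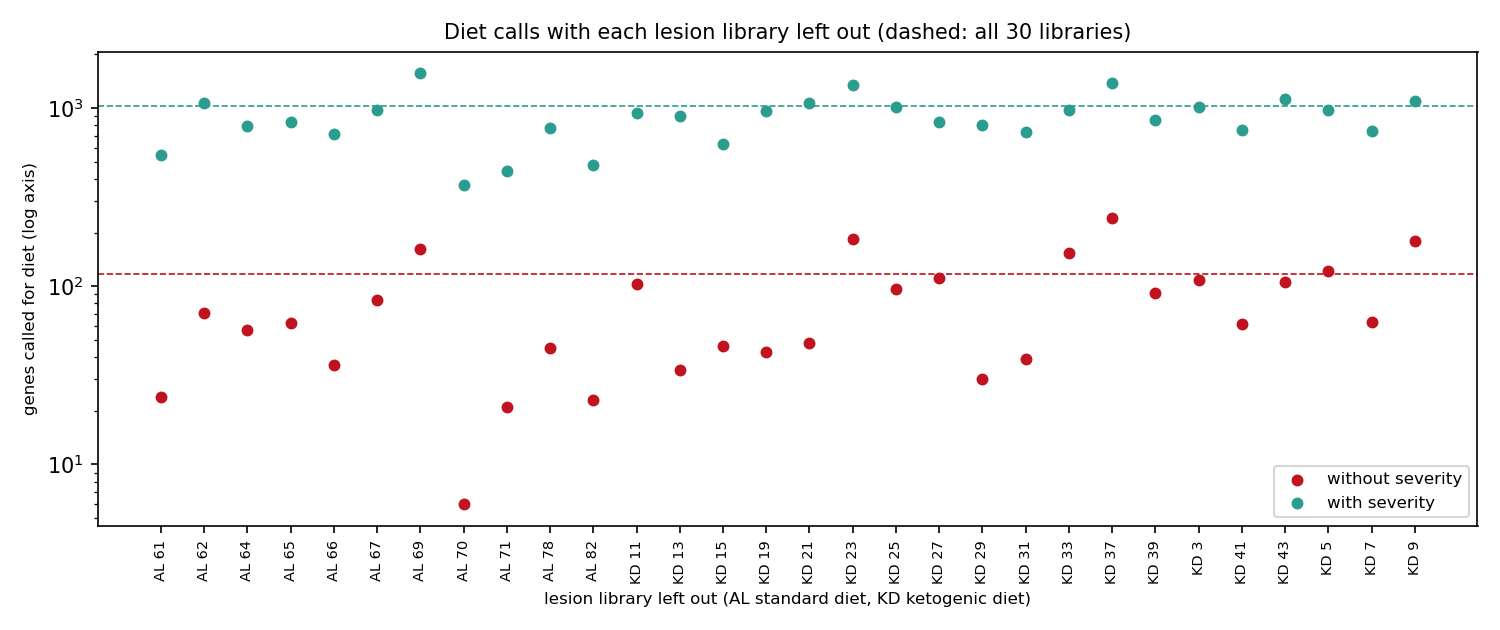
Number of genes called for diet (log axis) with each of the 30 lesion libraries left out in turn, without the severity score (red) and with it (green), with dashed lines at the counts from all 30 libraries (117 and 1025). The red points span 6 to 242 and the green points 370 to 1571.

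The balance of higher and lower calls depended on how libraries were scaled and, without the score, also on the method and on single lesions. With the score 47.9% of calls were higher on the ketogenic diet under TMM scaling, 52.8% under RLE scaling and 31.4% with library totals only. Without the score these shares were 62.4%, 75.2% and 33.3%. Under TMM scaling without the score, the share was 49.2% with limma voom and 55.9% to 83.3% with each lesion left out. With the score these values were 46% and 43.3% to 51.6%. The median difference over all genes was 0.007 with TMM and -0.013 with totals in the fit with the score. Of the 1071 calls made with totals and the score, 869 were among the 1025. The cause of the shift in the balance was not tested. No gene at a mean of at least 1 CPM had diet ranges that did not overlap, in CPM or after moving lesions to the mean score (0 of 14798).

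Intact brain of the same diets shares no library with the lesions, and there the genes called in lesions mostly lay in the same direction. Of the 1025 genes called with the score, 1016 were tested in intact brain and 860 (84.6%) had the same sign there, against 62.9% of all 14661 genes tested in both tissues. The 908 added genes gave 83.2% of 901. The median difference of the 1016 in their lesion direction was 0.14 on the log2 scale in intact brain, against 0.06 for all genes, and 276 of them (27.2%) had an unadjusted p under 0.05 there, against 14.8% of all genes. edgeR called 0 of 14746 genes for diet in intact brain itself (2181 had an unadjusted p under 0.05), so these are values side by side and not calls. Genes are not independent of each other, and no test was made of these shares. The genes called were mostly at middle and high levels, and the shares over all genes were not matched for level. Sample numbers separate the diets in both tissues, so diet and anything that follows the numbering cannot be told apart here either.

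By library, the mean log2 level of the lesion-called higher genes minus that of the lower genes was set to 0 at the mean of standard-diet intact brain. It ran from -0.268 to 0.171 (median 0.0303) in standard-diet and from -0.101 to 0.60 (median 0.271) in ketogenic intact libraries. 6 of 8 ketogenic libraries lay above every standard-diet library. The intact groups also differed in the share of counts held by the 20 most abundant genes, 18.5% ± 3.39 (SD, n = 8) in ketogenic against 24.5% ± 4.52 (SD, n = 8) in standard-diet libraries, and its part in these values was not tested.

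**Figure D5:**
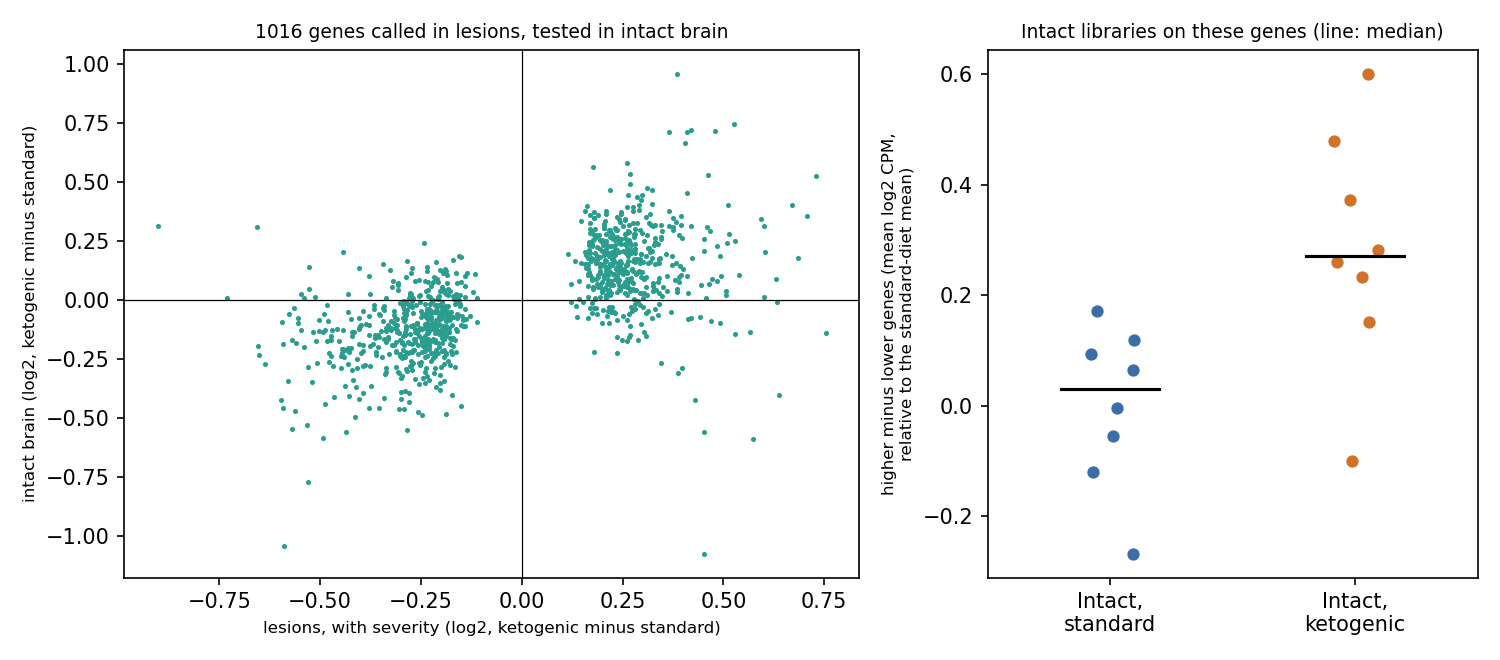
Left, diet difference (log2, ketogenic minus standard) in lesions with the severity score against that in intact brain for the 1016 genes called in lesions and tested in both. Right, mean log2 CPM of the higher minus the lower genes in each intact library relative to the standard-diet mean, with a line at the median. Most genes lie in the lower left and upper right of the plot, and the ketogenic libraries run from -0.101 to 0.60.

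Of the 8 named IDs, 4 had the opposite sign in intact brain. ENSRNOG00000069594, higher in ketogenic lesions, was at 1.17 to 2.9 CPM (median 2.29) in ketogenic and 1.58 to 4.21 CPM (median 2.40) in standard-diet intact brain, a log2 difference of -0.40 that did not pass. A direct test of diet by tissue over all 46 libraries gave this ID an edgeR adjusted p of 0.557 (unadjusted p = 0.000455), and 0 of 16140 genes passed it, with 719 at an unadjusted p under 0.05. ENSRNOG00000015333 was at 1.01 to 4.97 CPM (median 3.00) in ketogenic and 0.587 to 2.77 CPM (median 1.31) in standard-diet intact brain, with a log2 difference of 0.75 (unadjusted edgeR p = 0.0321, adjusted p = 0.29). The other IDs with the opposite sign were ENSRNOG00000068238, with a log2 difference of -0.14 in intact brain, ENSRNOG00000070456, with 0.31, and ENSRNOG00000013937, with 0.01. None of these passed there (unadjusted edgeR p of 0.626, 0.471 and 0.973).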

How the data were processed

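PolyA RNA of intact brain or lesions was sequenced from directional libraries, per the labels' protocols. The authors deposited raw counts per Ensembl gene ID with no normalization. The submitters' processing notes name build mRatBN7.2 with HISAT2 2.0.5, HTSeq 0.7.2, Cufflinks, DESeq2 1.42.0, bcl2fastq 2.20, FastQC 0.11.8 and MultiQC 1.15. The annotation release and the strand setting are not given in the sources used here. Reads of overlapping or antisense genes may therefore be mixed. The series-wide table equals the per-sample files (0 cells differ). Its 39 columns of samples not described in the labels were not used.

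The tests ran in edgeR 4.0.16 under R 4.3.3 (TMM, filterByExpr, robust quasi-likelihood F test, Benjamini-Hochberg adjusted p under 0.05 over all genes tested) on the 30 lesions, without and with the severity score (CPM by library total, pseudocount 1). Both fits were tested on simulated data. DESeq2 1.42.0, limma 3.58.1 voom with quality weights, other scalings, filters and scores and leaving out each library were alternatives. The diet by tissue test and the reading of intact libraries on genes called in lesions were chosen after seeing the data. The score, the lists and the tests were chosen with earlier results of these data known. The 40 gene lists, with 627 genes, could not be used without names. IDs were named by the rule for unnamed genes: the 2 largest called rises and falls per fit at a mean of at least 1 CPM. The labels name no animal per library, so p-values measure the spread between libraries, which may be partly technical. Any 2 libraries of a group differed by a chi-square of at least 12.2 per degree of freedom.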

Additional observations from a re-analysis of the deposited data

Results flagged for a closer look

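In intact brain 4 readings stood apart from the other libraries of their group, out of 32 groups of readings examined, where chance gives about 1 in 20. Itgb2 was at 6.03 CPM in standard-diet library 89, against 4.03 CPM in the next. ENSRNOG00000068238 was at 0.35 CPM in ketogenic library 47, against 1.06 CPM in the next lowest. ENSRNOG00000020434 was at 1.9 CPM in ketogenic library 55, against 1.08 CPM in the next. ENSRNOG00000053406 was at 0.277 CPM in standard-diet library 83, against 0.954 CPM in the next lowest. These readings enter none of the lesion fits. The lesion groups were too large for the rule used and were not examined, so nothing is said here of outliers among lesions.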

How the results depend on the processing

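Without the severity score the 117 diet calls became 502 with DESeq2, 933 with limma voom and quality weights, 183 with library totals only and 21 with no low-count filter. RLE scaling gave 101 and a minimum mean of 1 CPM 119. With the score the 1025 calls became 1606 with DESeq2, 2445 with limma voom and 599 with no low-count filter, which tests 22528 genes in place of 15782. DESeq2 gave an adjusted p for 13024 genes without and 14864 with the score. Of the 1025 genes, 1012 were also called by DESeq2 and 1012 by limma voom. Other scores kept the count within 1.5 times: 904 on TMM-scaled CPM, 745 to 1273 with 1 of the 4 genes left out, 751 with a squared term and 1495 (827 shared) with the first principal component in place of the score. Leaving out each lesion gave 6 to 242 calls without the score, 370 to 1571 with it, and a diet difference in the score from -0.35 to -0.05 (permutation p from 0.354 to 0.885). The lesions that moved the count without the score by over 1.5 times were the standard-diet lesions 61 (24), 62 (71), 64 (57), 65 (62), 66 (36), 70 (6), 71 (21), 78 (45) and 82 (23) and the ketogenic lesions 7 (63), 9 (179), 13 (34), 15 (46), 19 (43), 21 (48), 23 (184), 29 (30), 31 (39), 37 (242) and 41 (61). The cause was not tested. No named ID changed direction in any setting. These IDs were picked for large differences and the settings share most lesions, so a change was unlikely from the start. The diet by score test stayed at 0 calls with DESeq2, limma voom and the first component (1091 genes at an unadjusted p under 0.05). No paired analysis was possible because the diets share no sample number. Precision was lowest in weakly expressed genes. The part of depth in this was not tested.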
